A study of Mus musculus with 24 samples.

Results

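The 6 genes described here encode the metallothioneins Mt1, Mt2 and Mt3, the zinc-sensing transcription factor Mtf1, the zinc exporter Slc30a1 and the zinc importer Slc39a1. They were taken from the deposited count table by gene symbol, as 6 of its 54532 genes, and all 6 symbols were found. RNA had been sequenced from macrophages grown from mouse bone marrow and then kept either in M-CSF (macrophage colony-stimulating factor) together with RANKL, the cytokine that turns macrophages into bone-resorbing osteoclasts, or in M-CSF alone. Cells came from LysM-Cre Runx1 mice, which carry a Runx1 transgene at Rosa26 and a Cre recombinase driven by the lysozyme gene, active in myeloid cells, or from control mice, which carry the same Rosa26 transgene and which the labels call wild type. Each genotype was sampled on days 5 and 3 in each medium, with 3 libraries in each of the 8 groups and 24 libraries in all. The age and sex of the mice are not given in the labels. The labels do not say whether the libraries of a group came from separate animals or cultures, so p-values measure only the spread between these libraries, which may be technical.

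Zinc is needed by many enzymes and transcription factors, and free zinc in the cell is held at a very low level. Metallothioneins are small, cysteine-rich proteins that bind zinc and copper, and most cells make Mt1 and Mt2 together when metal, glucocorticoid or oxidative stress rises. Mtf1 senses zinc and binds metal response elements in the promoters of Mt1, Mt2 and Slc30a1. Slc30a1 (ZnT1) carries zinc out of the cell, Slc39a1 (ZIP1) carries it in, and Mt3 is best known as the metallothionein of the brain. Osteoclasts use zinc in the enzymes of bone resorption, among them carbonic anhydrase and matrix metalloproteinases.

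In the deposited coordinates, which match GRCm38, the 3 metallothionein genes lie in a row on the forward strand of chromosome 8. Mt3 (ENSMUSG00000031760) spans 94152607 to 94154146, Mt2 (ENSMUSG00000031762) spans 94172664 to 94173568 and Mt1 (ENSMUSG00000031765) spans 94179082 to 94180327. Mtf1 (ENSMUSG00000028890) is on chromosome 4 from 124802104 to 124849800, Slc30a1 (ENSMUSG00000037434) on chromosome 1 from 191906767 to 191913247 and Slc39a1 (ENSMUSG00000052310) on chromosome 3 from 90248172 to 90253612. All 6 are protein-coding genes on the forward strand, and a count covers the exons of the whole gene. The fourth gene of the family, Mt4, had 1 count in all 24 libraries together.

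The promoter windows of 4 of these genes are shown because the counts of the neighbours Mt1, Mt2 and Mt3 differed so much. Slc30a1 is included as the other textbook target of Mtf1. Each window holds 250 bases before and 50 bases after the start site, on the forward strand, from RefSeq in the build GRCm38.p6. The windows are chr8:94178839-94179138 for Mt1, chr8:94172368-94172667 for Mt2, chr8:94152357-94152656 for Mt3 and chr1:191906531-191906830 for Slc30a1. Capitals mark the core of the metal response element, TGCACNC or TGCGCNC, on either strand, so a core on the reverse strand is printed as its reverse complement.
Mt1: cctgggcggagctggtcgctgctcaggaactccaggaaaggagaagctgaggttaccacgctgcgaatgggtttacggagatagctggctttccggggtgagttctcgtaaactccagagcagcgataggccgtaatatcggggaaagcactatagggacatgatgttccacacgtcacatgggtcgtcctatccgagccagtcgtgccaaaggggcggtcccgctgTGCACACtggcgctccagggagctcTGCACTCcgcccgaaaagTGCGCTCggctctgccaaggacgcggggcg
Mt2: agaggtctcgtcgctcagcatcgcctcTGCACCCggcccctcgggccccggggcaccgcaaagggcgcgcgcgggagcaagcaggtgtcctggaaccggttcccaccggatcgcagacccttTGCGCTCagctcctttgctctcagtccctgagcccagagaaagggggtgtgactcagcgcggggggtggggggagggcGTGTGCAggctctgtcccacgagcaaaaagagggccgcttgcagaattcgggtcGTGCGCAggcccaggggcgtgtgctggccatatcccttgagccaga
Mt3: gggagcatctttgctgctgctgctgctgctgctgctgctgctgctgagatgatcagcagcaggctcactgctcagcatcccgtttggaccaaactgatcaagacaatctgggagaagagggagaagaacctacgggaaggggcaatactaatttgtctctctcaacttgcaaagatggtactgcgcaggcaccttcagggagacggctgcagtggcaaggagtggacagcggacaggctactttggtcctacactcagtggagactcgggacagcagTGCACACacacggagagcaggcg
Slc30a1: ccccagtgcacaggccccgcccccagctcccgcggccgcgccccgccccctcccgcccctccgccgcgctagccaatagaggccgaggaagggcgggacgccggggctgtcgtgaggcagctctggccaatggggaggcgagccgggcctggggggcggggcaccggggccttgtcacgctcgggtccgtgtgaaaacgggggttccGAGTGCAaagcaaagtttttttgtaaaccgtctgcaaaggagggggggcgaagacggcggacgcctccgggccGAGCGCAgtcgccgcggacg

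The window of Mt1 holds 3 cores, all on the forward strand. Counted from the start site, the first core begins 23 bases before it and the others at bases 3 and 21 after it. The window of Mt2 holds 4 cores, that of Slc30a1 holds 2, both on the reverse strand, and that of Mt3 holds 1, at base 28 after the start site. The windows of Mtf1 and Slc39a1 hold 0. Of the 32851 RefSeq promoter windows of the same length, 25.7% hold at least 1 core, 7.11% at least 2, 1.97% at least 3 and 0.517% at least 4. With the narrower motif TGCGCNC or TGCACAC the counts were 2 for Mt1, 3 for Mt2, 1 for Mt3 and 1 for Slc30a1. A match is a description of the letters and does not show that a factor binds there. Positions and counts hold only for the start site that RefSeq gives, and cores outside the window were not counted.

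Library totals ran from 18975750 to 36523995 counts, and a single read was worth 0.0286 to 0.0541 CPM, the count relative to the TMM-scaled library size. Of the 6 genes, 5 passed the filter on low counts and entered the fit, and Mt2 did not. Mt3 passed through its RANKL libraries. Runx1 itself, which the labels call over-expressed, did not pass the threshold between genotypes. On day 5 with RANKL it had 80.5 ± 15.1 CPM in LysM-Cre Runx1 cells and 68.5 ± 2.55 CPM in control cells (SD, n = 3 each), with a log2 difference of 0.23 and an interval of −0.05 to 0.51 (edgeR, adjusted p = 1). The 3 other genotype contrasts of Runx1 gave log2 differences of 0.00 to 0.17, each with an adjusted p of 1 in edgeR, and on day 3 with RANKL the genotypes did not overlap, at 57.9 ± 8.23 CPM in LysM-Cre Runx1 cells and 51.5 ± 0.862 CPM in control cells. The libraries are therefore called by their label. The 4 LysM-Cre Runx1 libraries of number 3 held 2576 counts of Y-linked genes together and 2 to 12 Xist counts each, against 0 to 2 Y-linked counts in each other set of 4 and 14963 to 28379 Xist counts in each other library. In LysM-Cre Runx1 cells number 3 thus came from another animal than numbers 1 and 2. Whether the other numbers mark separate animals is not known. The summed level of 10 osteoclast markers was 36197 to 59879 CPM in RANKL libraries and 110 to 175 CPM in M-CSF libraries, and that of 8 macrophage markers was 2935 to 4532 CPM with RANKL and 7181 to 10371 CPM in M-CSF alone. Lymphoid markers summed to at most 0.473 CPM in any library, and mast cell markers to at most 0.458 CPM. Neutrophil markers summed to 55.0 to 127 CPM with RANKL and 82.5 to 196 CPM in M-CSF alone, and erythroid and megakaryocyte markers to 14.1 to 88.9 CPM with RANKL and 192 to 1528 CPM in M-CSF alone. Stromal markers lay at 3.68 to 292 CPM with RANKL and 4.61 to 136 CPM in M-CSF alone. They differed by day, with 3.68 to 22.6 CPM in day 3 libraries. On day 5 they lay at 58.4 to 292 CPM in libraries 1 and 2 and at 10.8 to 25.4 CPM in library 3 of the groups. Dendritic cell markers lay at 2.68 to 11.1 CPM with RANKL and 0.299 to 1.24 CPM in M-CSF alone. The part of any of these lists in the results below, day changes included, was not tested.

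Nearly all metallothionein counts of these cells were of Mt1 and Mt3, and Mt3 was found almost entirely with RANKL. The level of Mt2 is uncertain, as described below. On day 5 with RANKL, Mt3 stood at 202, 123 and 321 CPM in LysM-Cre Runx1 libraries and at 221, 243 and 210.0 CPM in control libraries. On day 3 with RANKL it stood at 275, 249 and 229 CPM in LysM-Cre Runx1 libraries and at 219, 329 and 218 CPM in control libraries. In M-CSF alone, 11 of 12 libraries had 0 counts of Mt3, and the remaining one, a control library of day 3, had 2. The lowest RANKL library thus held 2365 counts and the highest M-CSF library 2.

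Against a floor of 3 counts over the group, Mt3 was at least 5147-fold higher with RANKL than in M-CSF alone in LysM-Cre Runx1 cells on day 5 and at least 6121-fold higher on day 3. In control cells it was at least 4339-fold higher on day 5. On day 3 the control ratio was 8539, with an exact 95% counting interval of 2363 to 70514, and these bounds and the interval cover counting error only. A count of 0 over a group of 3 libraries allows a level of up to 0.0410 to 0.0518 CPM. Mt3 was known from earlier results of these data to be higher with RANKL when the 6 genes were put together, so no test of RANKL against M-CSF alone is given for it or for the other 5. In bulk RNA, a change in the number of cells that express a gene and a change in RNA per cell cannot be told apart.

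Mt1, the inducible metallothionein found in most tissues, was present in every library. On day 5 with RANKL it stood at 202, 182 and 219 CPM in LysM-Cre Runx1 libraries and at 200.4, 186 and 181 CPM in control libraries. On day 3 with RANKL it stood at 149, 136 and 145 CPM in LysM-Cre Runx1 libraries and at 133, 137 and 143 CPM in control libraries. On day 5 in M-CSF alone it stood at 149, 135 and 149.9 CPM in LysM-Cre Runx1 libraries and at 137, 156 and 162 CPM in control libraries. On day 3 in M-CSF alone the values were 262, 127 and 127 CPM in LysM-Cre Runx1 libraries and 111, 127 and 128 CPM in control libraries. The log2 difference of RANKL from M-CSF alone was 0.48 in LysM-Cre Runx1 cells and 0.32 in control cells on day 5, and −0.27 in LysM-Cre Runx1 cells and 0.17 in control cells on day 3 (SE 0.18 each). The media did not overlap in 3 of these comparisons, all but that of LysM-Cre Runx1 cells on day 3, whose difference was 0.17 without the library at 262 CPM. How many of all genes show no overlap is not given here.

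A single library therefore stands apart for Mt1, number 1 of LysM-Cre Runx1 cells on day 3 in M-CSF alone, with 6527 counts. In the same library mitochondrial transcripts took 2.42% of counts, against 1.86% and 1.53% in the other libraries of its group. A list of 12 skeletal muscle genes, chosen after the values were seen and of which 11 had counts in that group, summed to 19.4 CPM there, against 6.01 and 6.39 CPM in the other libraries of the group. Library 1 of LysM-Cre Runx1 cells on day 3 with RANKL had a muscle sum of 18.5 CPM, and library 1 of control cells on day 3 with RANKL one of 21.8 CPM, with Mt1 at 149 and 133 CPM, within the range of the other libraries. The part of these in the Mt1 level was not tested.

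Mt2 had very few counts. It had 0 to 8 counts in a library and 67 in all 24, with a median of 0.0932 CPM with RANKL and 0.121 CPM in M-CSF alone, and 3 libraries had 0 counts. It is usually made together with Mt1, yet Mt1 had at least 2386 counts in every library. The RefSeq promoter window of Mt2 holds more cores than that of Mt1, and cores outside these windows were not counted. For both genes the RefSeq start site differs from the gene start in the deposited coordinates, so the windows may not be placed alike. A link of the cores to the Mt2 level was not tested. The level of Mt2 is uncertain, since 432 of its 588 exon bases also belong to the antisense gene Gm45774, which had 0 to 6 counts, and the sources used here do not name the strand setting of the counting. The longest run that transcripts of Mt1 and Mt2 share is 20 bases, that of Mt1 and Mt3 is 27 bases and that of Mt2 and Mt3 is 20 bases.

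**Figure D1:**
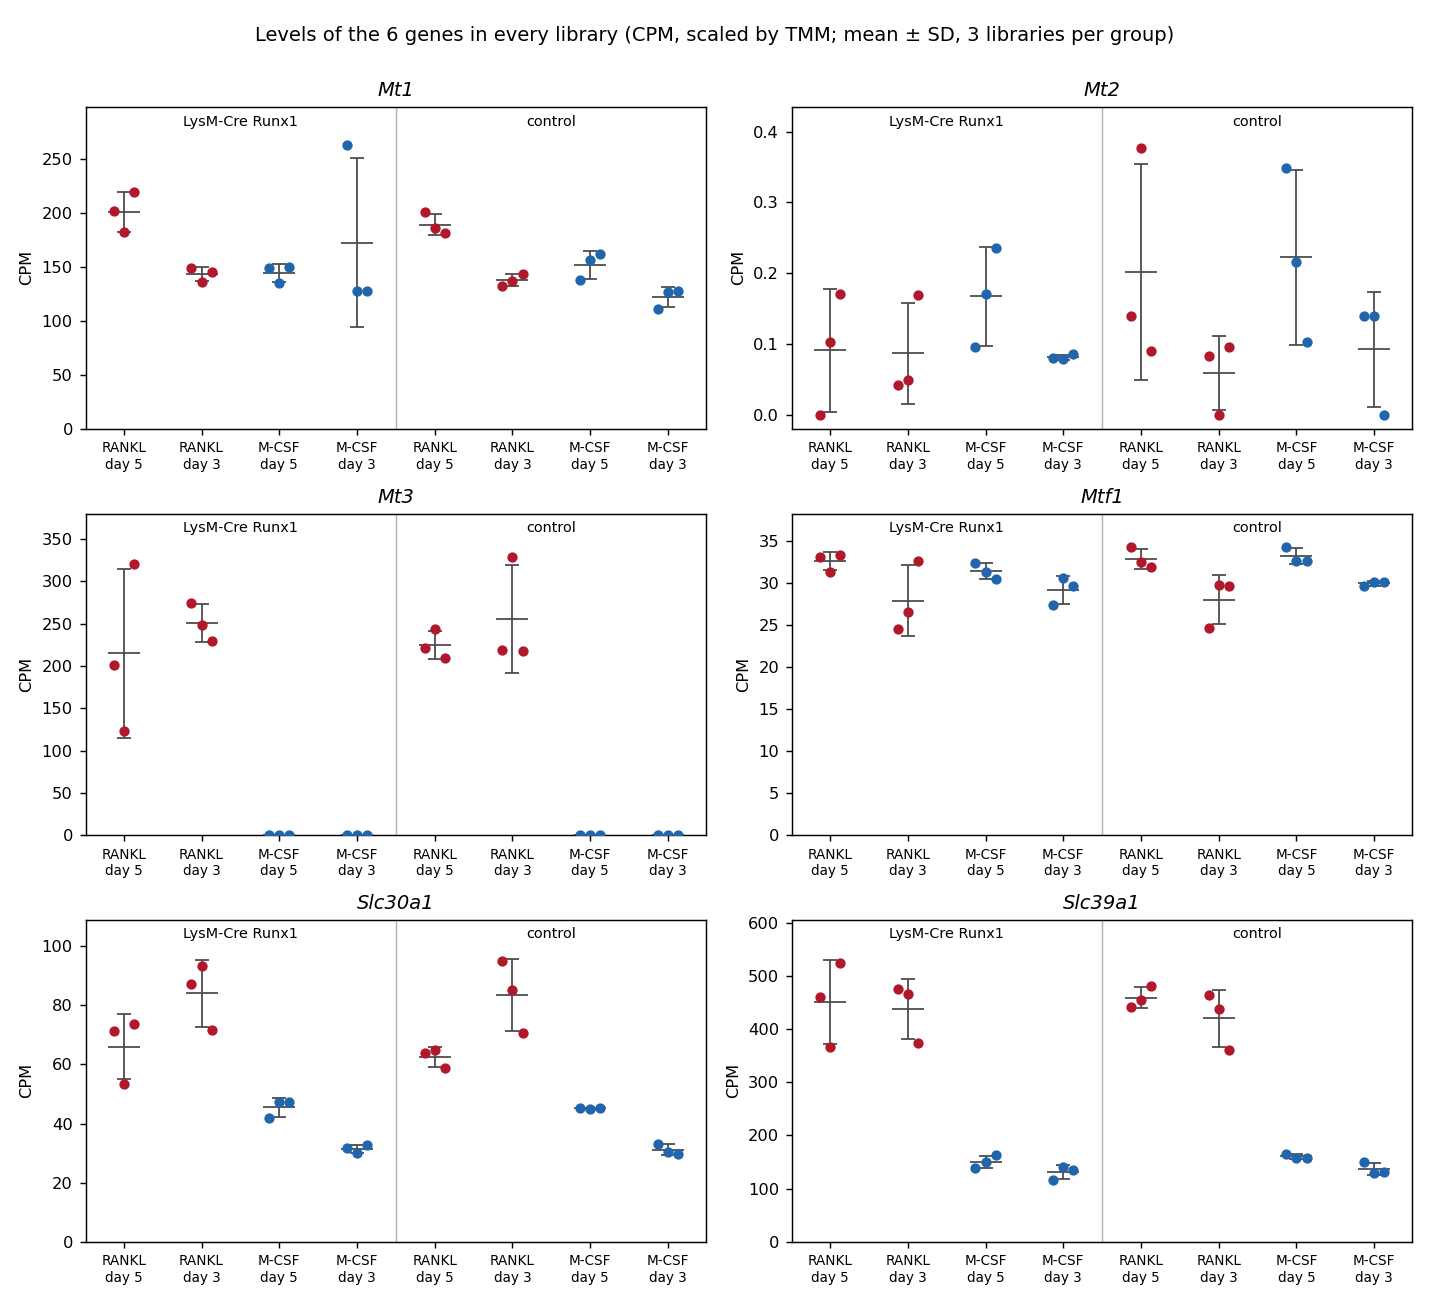
Level in CPM of each of the 6 genes in every library (points), with the mean and SD of the 3 libraries of each group; red points are RANKL libraries and blue points M-CSF libraries, and each panel has its own scale from 0. Mt3 lies at 123 to 329 CPM with RANKL and at 0 in 11 of 12 M-CSF libraries, Slc39a1 and Slc30a1 lie higher with RANKL in every library, and Mtf1 stays between 24.6 and 34.3 CPM.

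Levels of different genes can be compared only per length, here as CPM per kilobase of exon. The length used joins all annotated exons of a gene, 1246 bases for Mt1 and 1066 for Mt3, and for Mt1 it is the whole span of the gene. Lengths of the transcripts present were not measured, and a shorter one would raise the level per kilobase. The order of Mt1 and Mt3 and their shares therefore depend on these lengths. On this scale Mt3 lay above Mt1 in 11 of 12 RANKL libraries, with a ratio of Mt3 to Mt1 of 0.787 to 2.81 and a median of 1.74. The exception was library 2 of LysM-Cre Runx1 cells on day 5, with 115 CPM per kilobase of Mt3 and 146 CPM per kilobase of Mt1. Mt3 made up 44.0% to 73.7% of the summed metallothionein level per kilobase with RANKL, with a median of 63.5%, and at most 0.0976% of it in M-CSF alone. The sum itself had a median of 347 CPM per kilobase with RANKL (261 to 477) and of 109.6 CPM per kilobase in M-CSF alone (89.5 to 211).

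The same library 2 of LysM-Cre Runx1 cells on day 5 with RANKL was also the lowest of its group for Slc30a1, Slc39a1 and the sum of the osteoclast markers, at 36197 CPM against 50933 and 47292 CPM in the other libraries. Without it the day change of Mt3 in LysM-Cre Runx1 cells with RANKL was 0.06 on the log2 scale in place of −0.22, and neither passed the threshold. The part of the marker sum in the low Mt3 level was not tested.

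**Figure D2:**
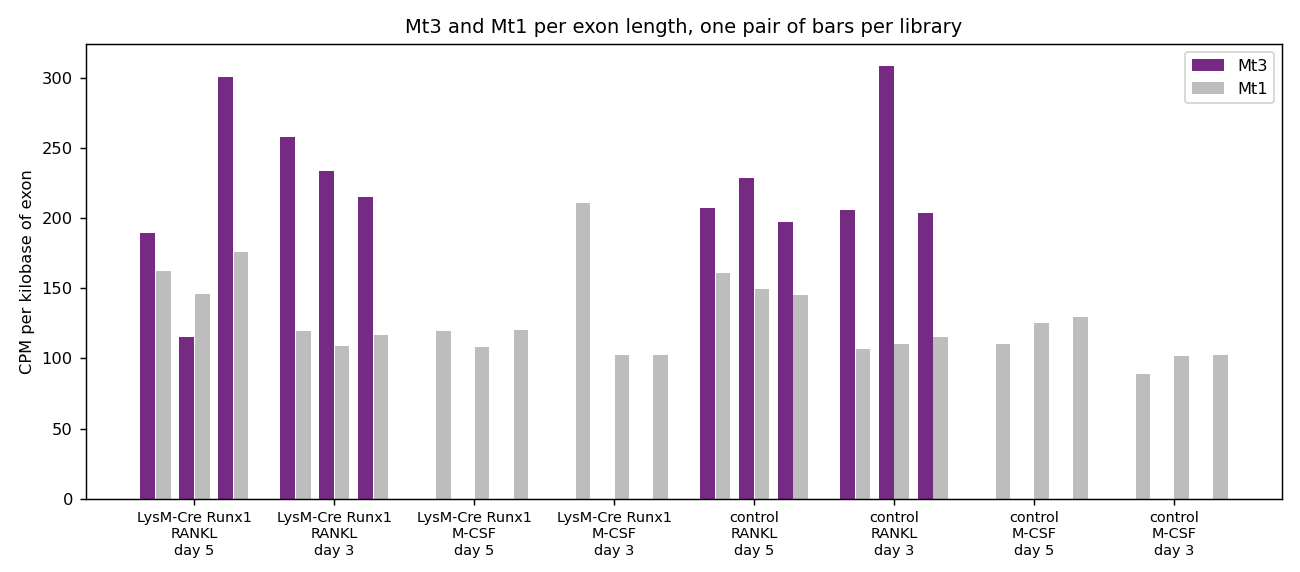
Mt3 (purple) and Mt1 (grey) in CPM per kilobase of exon, with a pair of bars for each of the 24 libraries, grouped by genotype, medium and day. Which bar is taller depends on the joined exon lengths used, 1246 bases for Mt1 and 1066 for Mt3. The Mt3 bar is the taller in 11 of 12 RANKL libraries and is at or near 0 in every M-CSF library, while the Mt1 bars stay between 89.2 and 211.

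Slc39a1, the importer, lay above the exporter Slc30a1 per kilobase of exon in every library. Other transporters were not compared per length. Slc39a1 was higher with RANKL in every library. On day 5 with RANKL it stood at 461, 367 and 524 CPM in LysM-Cre Runx1 libraries and at 442, 455 and 480.2 CPM in control libraries. On day 3 with RANKL it stood at 475, 466 and 373 CPM in LysM-Cre Runx1 libraries and at 464, 437 and 359.6 CPM in control libraries. In M-CSF alone all 12 libraries lay between 116 and 165 CPM, so the media do not overlap. The log2 difference of RANKL from M-CSF alone was 1.59 in LysM-Cre Runx1 cells and 1.52 in control cells on day 5, and 1.75 in LysM-Cre Runx1 cells and 1.61 in control cells on day 3, with an SE of 0.13 each.

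Slc30a1, the exporter, was also higher with RANKL in every library, but its distance between media differed with the day. On day 5 with RANKL it stood at 71.2, 53.4 and 73.5 CPM in LysM-Cre Runx1 libraries and at 64.0, 65.0 and 58.7 CPM in control libraries. On day 3 with RANKL it stood at 87.3, 93.3 and 71.6 CPM in LysM-Cre Runx1 libraries and at 94.9, 85.1 and 70.8 CPM in control libraries. In M-CSF alone the order of days was the other way round. There it stood on day 5 at 41.9, 47.3 and 47.4 CPM in LysM-Cre Runx1 libraries and at 45.3, 44.8 and 45.2 CPM in control libraries, and on day 3 at 31.6, 30.1 and 32.8 CPM in LysM-Cre Runx1 libraries and at 33.2, 30.4 and 29.7 CPM in control libraries. The log2 difference of RANKL from M-CSF alone was 0.54 in LysM-Cre Runx1 cells and 0.47 in control cells on day 5 (SE 0.12 each), and 1.42 in LysM-Cre Runx1 cells and 1.43 in control cells on day 3 (SE 0.12 each).

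Mtf1 lay within a narrow range. It had between 24.6 and 34.3 CPM with RANKL and between 27.4 and 34.3 CPM in M-CSF alone, and the media overlapped in all 4 comparisons, with log2 differences of −0.10 to 0.05. Of its 8907 exon bases, 721 also belong to 1110065P20Rik on the other strand, which had 68 to 211 counts in a library. Likewise 468 of the 5244 exon bases of Slc30a1 belong to the antisense gene 1700034H15Rik, which had 0 to 38 counts. Groups of RANKL and M-CSF libraries did not overlap for Mt3, Slc30a1 and Slc39a1 in any of the 4 comparisons. The share of all genes whose groups do not overlap, between media or between days, is not given here, so overlap is a description. By another measure, the edgeR adjusted p, 52.4% of all genes tested passed the threshold in LysM-Cre Runx1 cells on day 5 and 49.4% in control cells on day 5. On day 3 the shares were 59.2% in LysM-Cre Runx1 cells and 59.1% in control cells.

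The balance of importer to exporter also differed between the groups. Per kilobase of exon, the ratio of Slc39a1 to Slc30a1 was 15.1 ± 0.719 in LysM-Cre Runx1 cells and 16.3 ± 1.58 in control cells on day 5 with RANKL, and 11.6 ± 0.497 in LysM-Cre Runx1 cells and 11.2 ± 0.290 in control cells on day 3 with RANKL (SD, n = 3 each). In M-CSF alone it was 7.30 ± 0.303 in LysM-Cre Runx1 cells and 7.89 ± 0.173 in control cells on day 5, and 9.22 ± 1.13 in LysM-Cre Runx1 cells and 9.79 ± 0.274 in control cells on day 3. The ratio was thus higher on day 5 than on day 3 with RANKL and lower on day 5 than on day 3 in M-CSF alone, and these ratios were not tested.

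The change between days was tested within each medium and genotype, since day was not used to choose the genes. Slc30a1 moved in all 4 of these comparisons, and in opposite directions in the media. In M-CSF alone it was higher on day 5 than on day 3 by 0.53 log2 units in LysM-Cre Runx1 cells (SE 0.12, edgeR adjusted p = 0.00502) and by 0.54 in control cells (SE 0.12, edgeR adjusted p = 0.00339), and the days did not overlap in either. With RANKL it was lower on day 5, with a log2 difference of −0.35 in LysM-Cre Runx1 cells (SE 0.12, edgeR adjusted p = 0.0288), where the days overlap, and of −0.42 in control cells (SE 0.12, edgeR adjusted p = 0.0131), where they do not. The RANKL calls are close to the threshold. The control call was lost without library 1 of day 3 (−0.34, edgeR adjusted p = 0.0680) and without library 3 of day 5 (−0.37, edgeR adjusted p = 0.0577). The LysM-Cre Runx1 call was lost without library 1 of day 3 (−0.35, edgeR adjusted p = 0.0751), library 2 of day 3 (−0.29, edgeR adjusted p = 0.119) or library 2 of day 5 (−0.22, edgeR adjusted p = 0.183). It was also lost with only the compared groups in the fit (−0.33, edgeR adjusted p = 0.125) and with no filter on low counts (−0.30, edgeR adjusted p = 0.0954).

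Mt1 rose between day 3 and day 5 with RANKL in LysM-Cre Runx1 cells, where the call was fragile. The log2 difference was 0.49 in LysM-Cre Runx1 cells (interval 0.11 to 0.86, edgeR adjusted p = 0.0419) and 0.46 in control cells (0.08 to 0.83, edgeR adjusted p = 0.0653, past no threshold), and the days did not overlap in either genotype. The difference of control cells passed with the replicate block (0.46, edgeR adjusted p = 0.0395) and with only the compared groups in the fit (0.45, edgeR adjusted p = 0.00118). Leaving out any one of the 6 RANKL libraries of LysM-Cre Runx1 cells ended the call in those cells, with edgeR adjusted p-values of 0.0533 to 0.146, and so did RLE scaling (0.0634 in edgeR), DESeq2 (adjusted p = 0.0579) and the fit with no filter on low counts (0.081 in edgeR). The spread of Mt1 in this fit was shared with the library of LysM-Cre Runx1 cells at 262 CPM. Without that library, an alternative chosen after the values were seen, the SE fell to 0.08 and the same RANKL differences had edgeR adjusted p-values of 0.000223 in LysM-Cre Runx1 cells and 0.000573 in control cells. In M-CSF alone the difference of control cells, 0.31 (edgeR adjusted p = 0.218), then had an adjusted p of 0.0106 in edgeR. That of LysM-Cre Runx1 cells was −0.26 with the library and 0.18 without it, and neither passed the threshold (edgeR adjusted p = 0.37 and 0.246).

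The other genes did not pass the threshold between days. Mtf1 with RANKL had log2 differences of 0.22 in LysM-Cre Runx1 cells and 0.23 in control cells (edgeR adjusted p = 0.0737 and 0.0752), and that of LysM-Cre Runx1 cells was 0.34 without library 3 of day 3 (edgeR adjusted p = 0.00675). Mt3 with RANKL had −0.22 in LysM-Cre Runx1 cells (interval −0.79 to 0.35) and −0.18 in control cells (−0.75 to 0.39). Slc39a1 ranged from 0.04 to 0.22 over the 4 comparisons. In all, 2 of 5 genes with a test were called with RANKL in LysM-Cre Runx1 cells, against 33.2% of all genes tested, and 1 of 5 in control cells, against 26.8%. In M-CSF alone 1 of 4 was called in LysM-Cre Runx1 cells, against 14.3%, and 1 of 4 in control cells, against 23.7%. These counts lie near the share among all genes and are no result about the group.

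**Figure D3:**
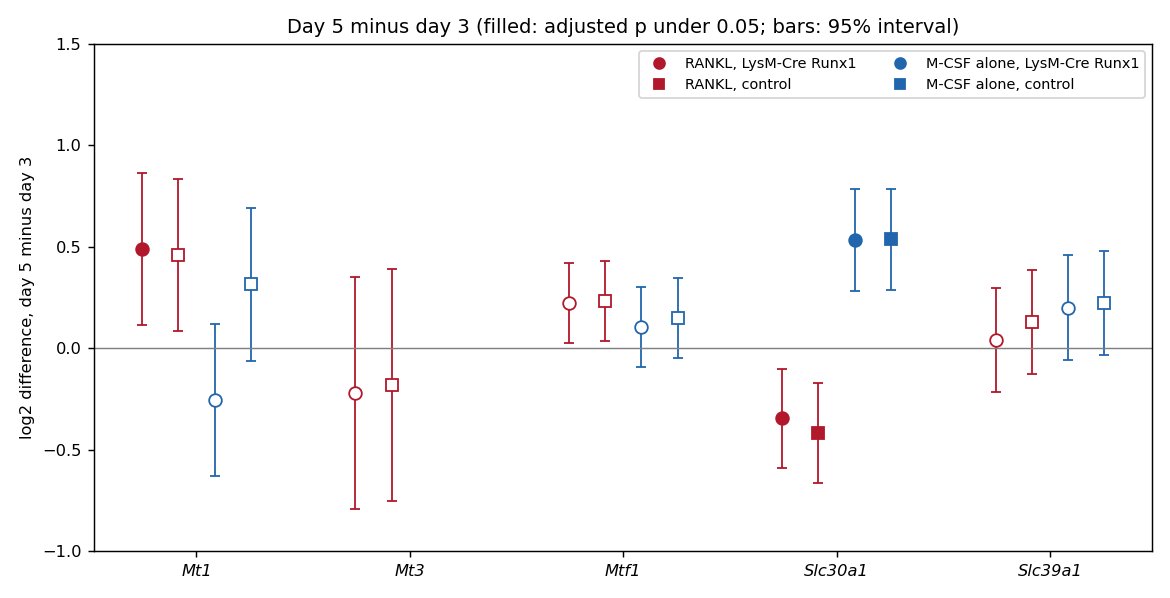
Log2 difference of day 5 from day 3 with its 95% interval for the 5 genes in the fit, in red with RANKL and in blue in M-CSF alone, circles for LysM-Cre Runx1 cells and squares for control cells; filled symbols have an edgeR adjusted p under 0.05, and Mt3 has no value in M-CSF alone. Slc30a1 lies at 0.53 and 0.54 in M-CSF alone and at −0.35 and −0.42 with RANKL.

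Between genotypes none of the genes passed the threshold. Of 18 tests in the 4 groups of day and medium, 0 were called by edgeR and 0 by DESeq2, and 1 had an unadjusted p under 0.05 in edgeR. Among all genes tested edgeR called 0% in each of the 4 comparisons, and DESeq2 called 6 on day 5 with RANKL, 2 on day 5 in M-CSF alone and 0 in each comparison of day 3. Without the 4 LysM-Cre Runx1 libraries of number 3, which carry the Y-linked counts, edgeR called 40 genes on day 5 with RANKL, 112 on day 5 in M-CSF alone, 6 on day 3 with RANKL and 34 on day 3 in M-CSF alone. With only the single LysM-Cre Runx1 library 3 of the comparison left out, it called 8 on day 5 with RANKL and 25 on day 5 in M-CSF alone, and 3 on day 5 in M-CSF alone without control library 1. In each of these fits 0 of the genes described here were called. The exception by unadjusted p was Mt1 on day 3 in M-CSF alone, with 172 ± 78.0 CPM in LysM-Cre Runx1 cells and 122 ± 9.36 CPM in control cells (SD, n = 3 each). Its log2 difference was 0.50 (edgeR's quasi-likelihood test across all genes, adjusted p = 1), and 0.06 without the library at 262 CPM. The 95% intervals of the 18 differences ran from −0.63 to 0.87 on the log2 scale, and from −0.36 to 0.32 once Mt1 and Mt3 were set aside. The 17 tests of whether the response to RANKL or the day change differed between genotypes gave 0 calls in edgeR and 1 unadjusted p under 0.05, against 0% of all genes called in each of the 4 comparisons. A p that misses the threshold does not show that the genotypes have the same level.

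Ordered by mean level, Slc30a1 ran from RANKL on day 3 over RANKL on day 5 and M-CSF alone on day 5 to M-CSF alone on day 3, and the neighbouring groups at the step from RANKL to M-CSF alone and at the step between days in M-CSF alone did not overlap. The groups of both genotypes stood next to each other at each of these 4 levels and overlapped, and so did neighbours on days 5 and 3 with RANKL. For Mtf1 the step from day 5 to day 3 came between LysM-Cre Runx1 cells on day 5 in M-CSF alone (31.4 CPM) and control cells on day 3 in M-CSF alone (30.0 CPM), which did not overlap, while all other neighbours did. Mt3 had RANKL groups at 215 to 255 CPM that overlapped one after the other. Slc39a1 likewise had all 4 RANKL groups, at means of 420.0 to 459 CPM, above all 4 M-CSF groups, at 130.5 to 160.5 CPM, and neighbours within each medium overlapped. For Mt1 the day 5 RANKL groups came first at 201 CPM in LysM-Cre Runx1 cells and 189 CPM in control cells, and the neighbouring groups overlapped down to the last step. There, control cells on day 3 in M-CSF alone lay at 122 CPM, below control cells on day 3 with RANKL at 138 CPM. The group of LysM-Cre Runx1 cells on day 3 in M-CSF alone overlapped its neighbours only through its library at 262 CPM. Its other libraries lay at 127 CPM each. Without that library, the lowest day 5 RANKL library had 181 CPM and the highest of all others 162 CPM.

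Other zinc transporters were taken from the families of exporters (Slc30a) and importers (Slc39a). Of 9 other exporters 5 were tested, and Slc30a6 was the one called higher in every comparison with RANKL. Slc30a6, which works in a complex of the Golgi, had 25.1 CPM with RANKL and 15.3 CPM in M-CSF alone in LysM-Cre Runx1 cells, and 24.4 against 15.7 CPM in control cells, on day 5 (log2 0.72 and 0.64, edgeR adjusted p = 2.66e-06 and 1.26e-05). Exporters called higher with RANKL were 1 of 5 in LysM-Cre Runx1 cells and 2 of 5 in control cells on day 5, and 2 of 5 in each genotype on day 3. Among all genes tested, 27.5% were called higher in LysM-Cre Runx1 cells and 26.4% in control cells on day 5, and 29.1% in LysM-Cre Runx1 cells and 29.5% in control cells on day 3. The count of LysM-Cre Runx1 cells on day 5 was 2 with RLE scaling, with DESeq2 and with the replicate block. Called lower were 0 of 5 in each genotype on day 5 and 1 of 5 in each on day 3, that being Slc30a5, whose control call was lost under RLE scaling and DESeq2 and without any one of 3 libraries. Their median log2 differences were 0.14 and 0.27 on day 5 and 0.19 and 0.25 on day 3 in LysM-Cre Runx1 and control cells, against −0.03 to 0.03 over all genes tested. Slc30a4, which loads zinc into vesicles, was higher on day 5 than on day 3 with RANKL, by 0.65 in LysM-Cre Runx1 cells and 0.71 in control cells (edgeR adjusted p = 0.0133 and 0.00918). These calls were lost without library 1 (0.56, edgeR adjusted p = 0.0686) or 2 (0.57, edgeR adjusted p = 0.0598) of LysM-Cre Runx1 cells on day 3, and without library 2 of control cells on day 3 (0.59, edgeR adjusted p = 0.0629). Slc30a2, Slc30a3, Slc30a8 and Slc30a10 had at most 11 counts in a library.

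All 13 other importers were tested, and they split. Called higher with RANKL were 3 in LysM-Cre Runx1 cells and 2 in control cells on day 5, and 5 in LysM-Cre Runx1 cells and 4 in control cells on day 3. Called lower were 4 in each genotype on day 5, and 5 in LysM-Cre Runx1 cells and 4 in control cells on day 3. Among all genes tested, 24.9% were called lower in LysM-Cre Runx1 cells and 23.1% in control cells on day 5, and 30.1% in LysM-Cre Runx1 cells and 29.7% in control cells on day 3, with the shares called higher as given for the exporters (27.5%, 26.4%, 29.1% and 29.5%). With single libraries or the libraries of number 3 left out, an alternative chosen after the values were seen, 2 to 3 importers were higher and 2 to 3 lower in LysM-Cre Runx1 cells on day 5, and 1 to 3 higher and 3 to 4 lower in control cells on day 5. On day 3 they were 3 to 5 higher and 4 to 5 lower in LysM-Cre Runx1 cells and 3 to 4 higher and 4 to 5 lower in control cells. Slc39a13 (ZIP13), an importer of intracellular vesicles needed for connective tissue, had the largest rise among them in each comparison. It had 150.1 CPM with RANKL and 26.1 CPM in M-CSF alone in LysM-Cre Runx1 cells on day 5, and 150.7 against 30.2 CPM in control cells (log2 2.53 and 2.32, edgeR adjusted p = 1.35e-12 and 3.99e-12). On day 3 the log2 differences were 2.99 in LysM-Cre Runx1 cells and 2.93 in control cells. Slc39a8 (ZIP8), a cell-surface importer of zinc and manganese, was lower with RANKL, at 8.21 against 26.7 CPM in LysM-Cre Runx1 cells and 5.77 against 24.3 CPM in control cells on day 5 (log2 −1.71 and −2.08, edgeR adjusted p = 3.43e-06 and 3.56e-07). Slc39a12 was low throughout and lower with RANKL, at 0.250 against 2.33 CPM in LysM-Cre Runx1 cells on day 5.

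Between days, Slc39a14 (ZIP14), an importer of zinc, iron and manganese, was higher on day 5 in all 4 comparisons. It had 72.7 CPM on day 5 and 26.9 CPM on day 3 in LysM-Cre Runx1 cells with RANKL (log2 1.43, edgeR adjusted p = 0.00258) and 59.7 against 27.5 CPM in control cells (1.12, edgeR adjusted p = 0.0163). In M-CSF alone the log2 differences were 1.20 in LysM-Cre Runx1 cells and 1.43 in control cells (edgeR adjusted p = 0.0175 and 0.00422). The RANKL call of control cells was lost without library 1 of day 3 (0.98, edgeR adjusted p = 0.0844). The M-CSF call of LysM-Cre Runx1 cells was lost without library 1 (1.09, edgeR adjusted p = 0.0779) or 2 (0.91, edgeR adjusted p = 0.0944) of day 3 or library 2 of day 5 (1.09, edgeR adjusted p = 0.0672). Slc39a6 (ZIP6) was higher on day 5 with RANKL, at 102 against 42.8 CPM in LysM-Cre Runx1 cells and 89.9 against 41.1 CPM in control cells (log2 1.25 and 1.13, edgeR adjusted p = 3.22e-05 and 0.000123). Of the 13 importers, 4 were called higher and 0 lower on day 5 with RANKL in LysM-Cre Runx1 cells, and 2 higher and 1 lower in control cells. Among all genes tested, 17.6% were called higher and 15.6% lower in LysM-Cre Runx1 cells, and 14.1% higher and 12.7% lower in control cells. In M-CSF alone 1 importer was called higher in LysM-Cre Runx1 cells and 3 in control cells, and 0 lower in each. There 7.17% of all genes were called higher and 7.09% lower in LysM-Cre Runx1 cells, and 12.2% higher and 11.5% lower in control cells. With libraries left out the importers called higher were 3 to 4 in LysM-Cre Runx1 cells and 1 to 2 in control cells with RANKL, and 0 to 2 in LysM-Cre Runx1 cells and 1 to 4 in control cells in M-CSF alone.

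**Figure D4:**
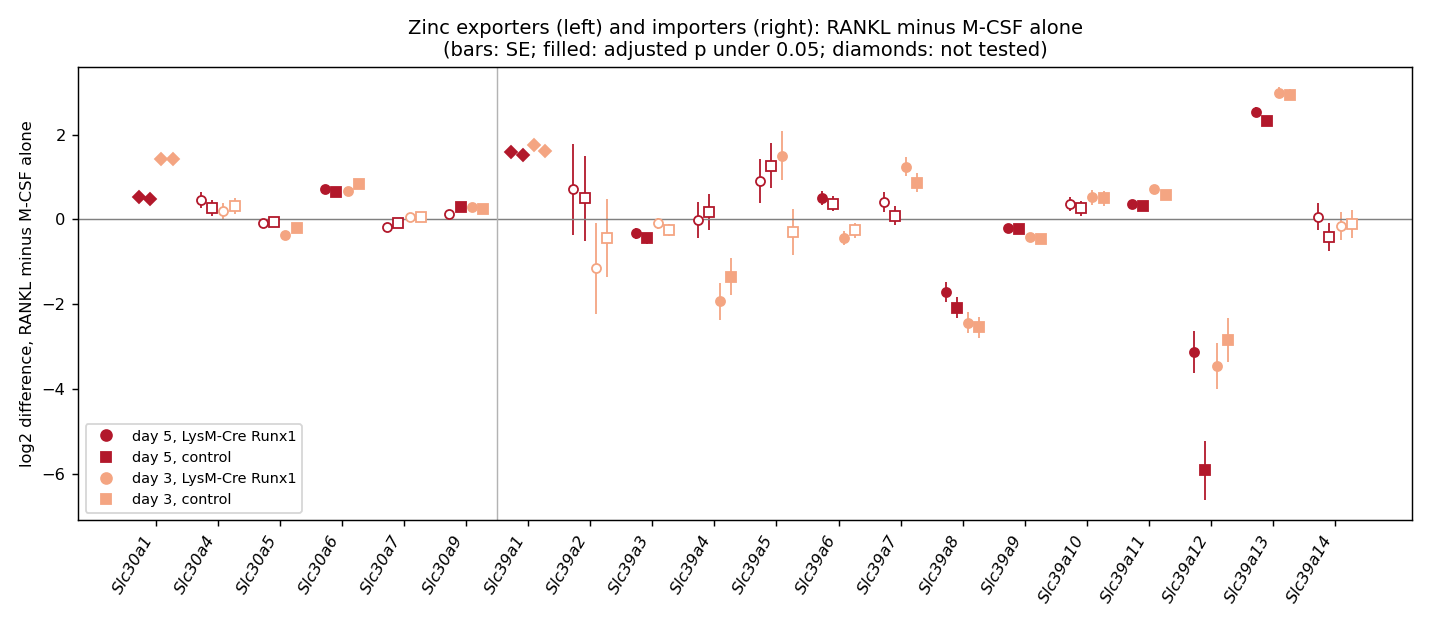
Log2 difference of RANKL from M-CSF alone with its SE for the zinc exporters (left of the line) and importers (right of it), dark red for day 5 and light red for day 3, circles for LysM-Cre Runx1 cells and squares for control cells; filled symbols have an edgeR adjusted p under 0.05, and the diamonds of Slc30a1 and Slc39a1 carry no test. Slc39a13 lies at 2.32 to 2.99 and Slc39a8 at −2.53 to −1.71.

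The list of zinc enzymes of bone resorption holds Car2, Mmp9, Mmp14 and Acp5, although the active site of Acp5, the acid phosphatase of osteoclasts, holds iron rather than zinc. All are osteoclast genes chosen with earlier results known, so their higher level with RANKL is a description. Car2, the carbonic anhydrase of acid secretion, averaged 256 CPM with RANKL and 0.0883 CPM in M-CSF alone in LysM-Cre Runx1 cells on day 5 and 279 against 0.0352 CPM in control cells. With RANKL, Car2 was lower on day 5 than on day 3, with log2 differences of −0.63 in LysM-Cre Runx1 cells and −0.52 in control cells (edgeR adjusted p = 0.0106 and 0.0354). The call of LysM-Cre Runx1 cells was lost without library 2 of day 5 (−0.48, edgeR adjusted p = 0.0749), and that of control cells in 5 of 6 fits that left out a library, with edgeR adjusted p-values of up to 0.098.

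Of the copper genes, the metal that metallothioneins also bind, 9 of 10 were tested. The metalloreductase Steap4 averaged 77.9 CPM with RANKL and 0.0284 CPM in M-CSF alone in LysM-Cre Runx1 cells on day 5, and 76.4 CPM against 0 in control cells. The copper chaperone Atox1 was higher with RANKL on day 5, by 1.25 log2 units in LysM-Cre Runx1 cells and 1.20 in control cells (edgeR adjusted p = 9.5e-08 and 1.59e-07), and the copper pump Atp7a was lower, with −1.36 in LysM-Cre Runx1 cells and −1.17 in control cells (edgeR adjusted p = 2.02e-08 and 1.69e-07). In total 3 copper genes were called higher and 2 lower with RANKL on day 5 in each genotype, 5 and 2 in LysM-Cre Runx1 cells on day 3, and 4 and 2 in control cells on day 3, against 26.4% to 29.5% of all genes called higher and 23.1% to 30.1% lower. The lower count of day 5 was 1 with DESeq2 in each genotype, 1 with RLE scaling in LysM-Cre Runx1 cells, and 1 to 2 with libraries left out. Of the 12 iron genes, 6 were called higher and 6 lower in each of the 4 comparisons, against the same shares of all genes. Tfrc, the receptor of iron uptake, was higher with RANKL than in M-CSF alone on day 5. Its log2 difference was 3.06 in LysM-Cre Runx1 cells and 2.90 in control cells. Slc40a1, the iron exporter, was lower with RANKL on day 5. Its log2 difference was −3.73 in LysM-Cre Runx1 cells and −4.00 in control cells (edgeR adjusted p = 1.12e-08 and 4.99e-09).

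Oxidative stress is another stimulus of Mt1. The list of Nrf2 targets moved together between days with RANKL, and a link of its change to that of Mt1 was not tested. With RANKL 9 of 10 were called higher on day 5 than on day 3 in each genotype, with median log2 differences of 1.11 in LysM-Cre Runx1 cells and 1.04 in control cells, against −0.02 and 0.00 over all genes tested. Of all genes, 17.6% were called higher in LysM-Cre Runx1 cells and 14.1% in control cells. The list was chosen with earlier results of these data known, so its counts are a description. Its 10 genes include Nfe2l2 and Keap1, which belong to the pathway itself. When single libraries or the 4 libraries of number 3 were left out, an alternative chosen after the values were seen, 8 or 9 were called. Nqo1, a quinone reductase, had 35.7 ± 7.43 CPM on day 5 and 4.97 ± 1.37 CPM on day 3 in LysM-Cre Runx1 cells, and 41.2 ± 5.21 against 6.33 ± 1.07 CPM in control cells (log2 2.85 and 2.70, edgeR adjusted p = 4.01e-08 and 9.7e-08). Hmox1, which breaks down haem, had log2 differences of 1.58 in LysM-Cre Runx1 cells and 1.21 in control cells (edgeR adjusted p = 0.00015 and 0.00191). Gsr, the glutathione reductase, was the gene not called, with 0.04 in LysM-Cre Runx1 cells and 0.12 in control cells.

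In M-CSF alone 1 Nrf2 target was called higher on day 5 in each genotype, Hmox1, with log2 differences of 1.35 in LysM-Cre Runx1 cells and 1.63 in control cells (edgeR adjusted p = 0.00141 and 0.000161), and the list's medians were 0.07 in LysM-Cre Runx1 cells and 0.06 in control cells. Nfe2l2, which encodes Nrf2 itself, was called lower in control cells there (−0.27, edgeR adjusted p = 0.0245), a call lost in 3 of 6 fits that left out a library. Of all genes, 7.17% were called higher in M-CSF alone in LysM-Cre Runx1 cells and 12.2% in control cells. On day 3, RANKL cells had lower levels than M-CSF cells for 7 of the 10 targets in each genotype and a higher level for 1. On day 5 the counts were 5 lower and 3 higher in each genotype. Of all genes, 26.4% to 29.5% were called higher and 23.1% to 30.1% lower in these 4 comparisons. Whether the day change of the list differed between the media was not tested.

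**Figure D5:**
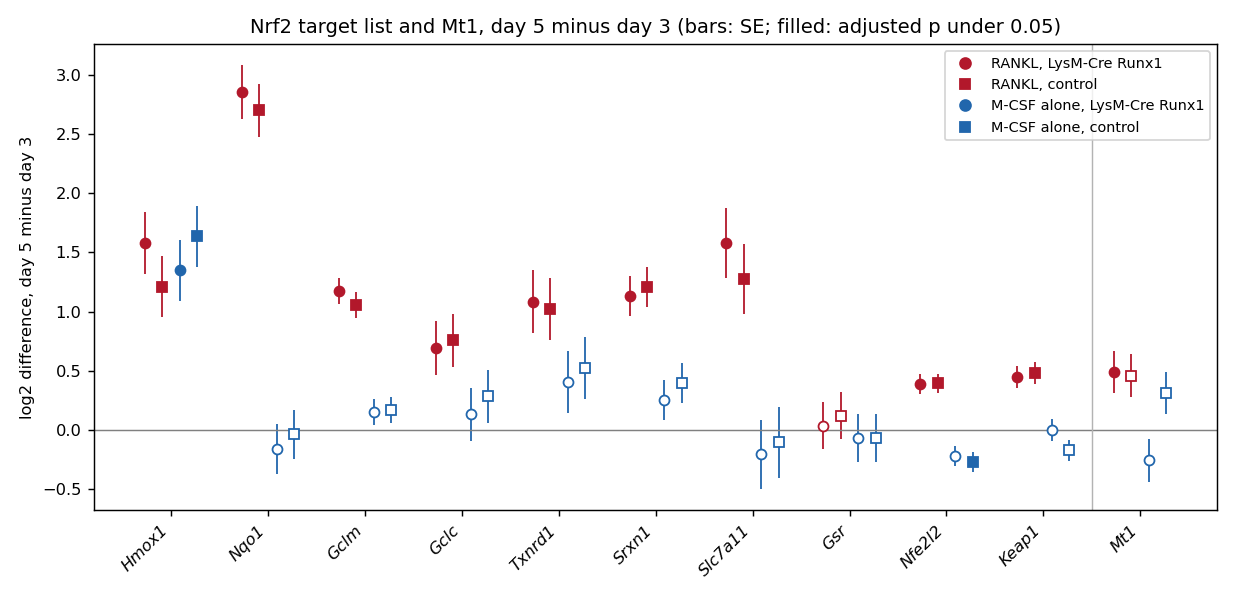
Log2 difference of day 5 from day 3 with its SE for the 10 genes of the Nrf2 list and, right of the line, Mt1, in red with RANKL and in blue in M-CSF alone, circles for LysM-Cre Runx1 cells and squares for control cells; filled symbols have an edgeR adjusted p under 0.05. With RANKL 9 of the 10 list genes are filled and above 0 in each genotype, from 0.39 for Nfe2l2 to 2.85 for Nqo1, and Mt1 lies at 0.49 and 0.46. A link between Mt1 and the list was not tested.

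Glucocorticoids also induce metallothioneins, and a link of the lists in this paragraph to Mt1 was not tested. Of the 7 glucocorticoid targets, 2 were called higher and 4 lower with RANKL in LysM-Cre Runx1 cells on day 5, 2 and 3 in control cells on day 5, 1 and 4 in LysM-Cre Runx1 cells on day 3, and 1 and 3 in control cells on day 3, against 26.4% to 29.5% of all genes called higher and 23.1% to 30.1% lower. With libraries left out, 1 to 3 were called lower in LysM-Cre Runx1 cells on day 3. Between days with RANKL the list's median log2 difference was −0.29 in LysM-Cre Runx1 cells and −0.23 in control cells. Dusp1, a phosphatase of MAP kinases, was higher on day 5 by 1.81 log2 units in LysM-Cre Runx1 cells and 1.99 in control cells (edgeR adjusted p = 1.31e-05 and 7.46e-06). The list counts were 2 higher and 2 lower in LysM-Cre Runx1 cells and 1 and 0 in control cells, against 17.6% higher and 15.6% lower of all genes in LysM-Cre Runx1 cells and 14.1% and 12.7% in control cells. The lower count of LysM-Cre Runx1 cells was 0 to 3 with libraries left out. Of the 8 hypoxia targets tested, 3 were called higher on day 5 with RANKL and 0 lower in each genotype, against the same shares of all genes, and 2 to 4 were higher in LysM-Cre Runx1 cells with libraries left out. Among them was the glucose transporter Slc2a1 with 1.11 in LysM-Cre Runx1 cells and 1.27 in control cells (edgeR adjusted p = 0.0112 and 0.0061), and its LysM-Cre Runx1 call was lost without library 1 or 2 of day 3 (edgeR adjusted p = 0.0509 and 0.0699). No gene of the 8 lists was called between genotypes by edgeR in any of the 4 comparisons. Without the LysM-Cre Runx1 libraries of number 3, Mmp9 and Egln3 were called on day 5 in M-CSF alone and Mmp9 and Tfrc on day 3 in M-CSF alone.

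The genes whose levels ran most alike over the 24 libraries were found by Pearson correlation of log2(CPM + 1), given as a description. Both media share these libraries, so a gene that differs strongly between media correlates with any other that does. For Mt3 the top 5 were Rufy4, Car2, Spns2, Akr1c18 and Oscar (r = 0.999 each), and for Slc39a1 they were Edil3, Gpr137b, Cpe, Rnf19b and Slc39a13 (r = 0.992 to 0.989). For Slc30a1 they were Rdh14, Slc12a7, Gtf2i, Prdx3 and Cux1 (r = 0.981 to 0.969). Mt1 and Mtf1 had weaker best matches, Eif3i with r = 0.841 for Mt1 and Gm39473 with r = 0.893 for Mtf1.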

How the data were processed

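RNA-seq counts per gene were analysed for 24 libraries. The authors deposited raw read counts for 54532 genes in a single table, and per the submitters' processing notes STAR and DESeq2 were used with the build GRCm39; the sources used here name no versions, counting tool or strand setting. Of 54495 identifiers found in GENCODE M21, 98.3% had the same position, so coordinates are those of GRCm38. A TruSeq kit was used, per the labels' protocols. The osteoclast medium held RANKL at 50 ng/mL and M-CSF at 30 ng/mL; the M-CSF dose of the other wells is not given.

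Libraries were grouped by their titles. Tests used edgeR 4.0.16 (quasi-likelihood, robust) in R 4.3.3 on 15035 genes kept by filterByExpr (27.6%), with TMM scaling and one coefficient for each of the 8 groups, so that groups share the spread. Benjamini-Hochberg adjustment ran over all genes tested, at a threshold of 0.05. CPM uses the scaled library size, CPM per kilobase the table's gene length. Scripts were tested on simulated data. The alternatives were RLE scaling, DESeq2 1.42.0, no filter, the compared groups alone, a replicate block and leaving out libraries. The 6 genes, the 8 lists (74 genes) and the cell type markers were chosen with earlier results of these data known, and the 12 muscle genes after the values were seen. Any tested list gene could be named, and up to 3 a list and comparison with the largest change past the threshold; for likeness, the 5 tested genes with the highest correlation. Same-numbered RANKL and M-CSF libraries deviated together in control cells on day 3 (r of 0.125 to 0.488). They also did so in LysM-Cre Runx1 cells on day 5 (0.249 to 0.448), so the numbers pair them in these groups. In control cells on day 5 each number matched itself best as well (r of 0.0473 to 0.231), but these libraries were not taken as paired. The block on the numbers of the paired groups changed 3 of 136 list calls. With it, in LysM-Cre Runx1 cells on day 5, Slc30a4 and Txnrd1 were called higher (edgeR adjusted p = 0.015 and 0.0497) and Tsc22d3 lost its call (0.0608). No protein sequence was used.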

Additional observations from a re-analysis of the deposited data

Results flagged for a closer look

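Slc30a1 changed between days in opposite directions in the media. In control cells its log2 difference of day 5 from day 3 was −0.417 with RANKL and 0.536 in M-CSF alone, and in each medium the 3 libraries of one day lay apart from the 3 of the other. It was picked out because in control cells the days lay apart in each medium, in opposite directions. In LysM-Cre Runx1 cells with RANKL the days overlapped. The control call with RANKL was lost without library 1 of day 3 (edgeR adjusted p = 0.068). It was also lost without library 3 of day 5 (edgeR adjusted p = 0.0577). The difference between the media was not tested, and its cause was not tested.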

How the results depend on the processing

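The day change of Slc30a1 in M-CSF alone kept its direction and its call under every alternative run, from 0.50 to 0.60 with single libraries left out in LysM-Cre Runx1 cells and 0.50 to 0.59 in control cells. With RANKL the number of the 5 genes called in LysM-Cre Runx1 cells (2) was 1 with RLE scaling, 0 with no filter, 1 with the compared groups alone, 1 with DESeq2 and 0 to 2 with libraries left out. In control cells (1) it was 2 with the compared groups alone, 2 with the replicate block and 0 to 1 with libraries left out. Without the library at 262 CPM of Mt1, chosen after seeing the data, it was 2 in control cells with RANKL and 2 in control cells in M-CSF alone, where 1 was called with it. Directions that turned were those of small differences. The day change of Slc39a1 with RANKL in LysM-Cre Runx1 cells was −0.0069 with RLE scaling, −0.006 with DESeq2 and −0.0821 to 0.17 with single libraries left out (−0.185 without the libraries of number 3), that of Mt3 with RANKL −0.63 to 0.0579 in LysM-Cre Runx1 (−0.69 without number 3) and −0.30 to 0.0243 in control cells, and that of Mt1 in M-CSF alone in LysM-Cre Runx1 cells −0.433 to 0.18 (−0.46 without number 3). The genotype difference of Mt3 with RANKL ran from −0.47 to 0.22 on day 5 and from −0.13 to 0.20 on day 3 (0.0308 without number 3). The causes were not tested. Number 3 of LysM-Cre Runx1 cells marks the same Y-linked set on both days. In the day contrasts the numbers in the labels were still treated as names, since same-numbered libraries did not all deviate together. Over all day contrasts r ran from −0.133 to 0.462. In LysM-Cre Runx1 cells with RANKL each number matched itself best, with r of 0.0742 to 0.268. The block on the numbers gave 2 calls with RANKL in control cells, through Mt1 (0.46, edgeR adjusted p = 0.0395), and changed no other day call of the 6 genes. Depth limits Mt2, with at most 8 counts in a library, and Mt3 in M-CSF alone.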
